A study of Mus musculus with 12 samples.

Results

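The cytoplasmic ribosomal protein (RP) genes of the mouse were measured in sorted megakaryocytes (MKs), the cells that release platelets. Members were taken by symbol and gene type. They are the protein-coding genes of the count table named Rpl or Rps with a number, together with Rplp0, Rplp1, Rplp2 and Rpsa. The rule found 84 genes among the 55536 of the table. Of these, 31 encode proteins of the small subunit, 43 encode proteins of the large subunit, 3 encode the stalk of the large subunit (Rplp0, Rplp1 and Rplp2) and 7 are paralogs, which are second copies of a family member (Rpl3l, Rpl7l1, Rpl10l, Rpl22l1, Rpl36al, Rpl39l and Rps27l). A total of 83 members were among the 20263 genes with enough reads to be tested, and Rpl10l was not. The RP genes Fau and Rack1 have names outside the rule and are described separately.

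The ribosome translates mRNA into protein. Its small subunit reads the mRNA, its large subunit joins the amino acids, and the stalk recruits the elongation factors. RP mRNAs are among the most abundant in most cells, and they share a pyrimidine-rich 5′ end (the TOP motif) through which mTOR signaling controls their translation. Loss of 1 copy of several RP genes causes Diamond-Blackfan anemia, a failure of red cell production, so blood cell formation is known to depend on the supply of RPs. MKs synthesize large amounts of protein before they release platelets, which inherit some of their ribosomes and mRNA.

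RNA was sequenced from MKs of the BM and the spleen, collected 5 days after saline or after sepsis, to compare the MKs of both organs at baseline and in sepsis. All mice were Pf4-TdTomato on a C57BL/6 background, in which a Cre recombinase driven by the Pf4 promoter switches on a red fluorescent protein. Cells sorted as CD45+, lineage negative, Pf4-tomato+, CD41+ and CD42b+ were pooled, 300 per library, with 3 libraries for each of the 4 combinations of organ and treatment. Sepsis was modeled with an injection of cecal slurry (CS), and the saline mice carried the same alleles. Young adult mice of both sexes were used in the study, and the labels do not give the age or sex behind a library. The study calls the replicates independent without saying whether each came from 1 mouse, so the p values below measure the spread between these libraries.

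Total counts were between 7756762 and 27386184 per library, and levels are given as CPM, which are counts relative to the library total after scaling with TMM factors. A count of 0 allows up to 0.405 CPM in the library with the highest limit. The MK label was checked against its markers. Pf4, the chemokine that drives the reporter, was at 9606 to 30581 CPM in the 6 BM libraries and at 476 to 2439 CPM in the 6 spleen libraries. The summed level of 21 MK and platelet genes was between 13762 and 53546 CPM in BM and between 1392 and 3861 CPM in spleen. The summed level of 16 B cell genes was between 169 and 1331 CPM in BM and between 27669 and 73029 CPM in spleen, with none of the 16 at 0 in all 3 libraries of a group, although the sort took lineage-negative cells. Markers of other cells moved with the comparisons between tissues, and their part in the results was not tested. In bulk RNA, fewer cells of a type and less RNA per cell cannot be told apart. The third spleen sepsis library stood apart from the other 11 in the makeup of its RP counts, and the main results between spleen sepsis and other groups are given with and without it.

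The sequences around the start sites of 6 members are shown because the results below turn on them: Rps27 with its paralog Rps27l, Rpl39 with its paralog Rpl39l, and Rpl28 and Rplp2, which were among the members with the smallest p values for sepsis in the spleen. Each runs from 15 bases before the start, which is base 16, to 14 bases after it. It was taken from RefSeq on GRCm38.p6, and capitals mark its longest run of C and T.
Rps27 (chr3:90213634-90213663, minus strand): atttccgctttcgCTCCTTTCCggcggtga
Rps27l (chr9:66946071-66946100, plus strand): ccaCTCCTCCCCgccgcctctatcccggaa
Rpl39 (chrX:37085208-37085237, minus strand): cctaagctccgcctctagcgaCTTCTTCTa
Rpl39l (chr16:10170213-10170242, plus strand): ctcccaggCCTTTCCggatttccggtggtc
Rpl28 (chr7:4792950-4792979, plus strand): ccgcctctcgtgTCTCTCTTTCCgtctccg
Rplp2 (chr7:141447636-141447665, plus strand): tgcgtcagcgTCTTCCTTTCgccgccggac
Rps27l has another RefSeq start at chr9:66946398-66946427, where the longest run had 4 bases, and it is not shown. The longest run of the sequences shown had 9 bases in both Rps27 and Rps27l and 11 in Rpl28. It spans base 16 in Rps27, Rpl28 and Rplp2, it lies before the start in Rps27l and Rpl39l, and it lies after the start in Rpl39. The letters CTTTC are in the windows of Rps27, Rpl39l, Rpl28 and Rplp2. They are absent from those of Rpl22, Rpl22l1, Rpl36a and Rpl36al, which are not shown, so the 6 shown do not stand for the members. RefSeq start regions were matched for 64 of the 84 members, with 76 entries because some genes have several starts. On the strand of the gene and within 25 bases of the start, CTTTC was in 25% of the member entries and 6.76% of all 32851 entries, and a run of at least 8 C or T bases, which can contain CTTTC, was in 44.7% and 19.7%. On either strand of the full 300 bases, CGGAAG, the core read by ETS factors, was in 60.5% of the member entries against 16.9% of all. ATGGCGG was in 18.4% against 4.06%. The letters TATAA were in 23.7% against 24.9%. These are matches of letters, and binding was not measured.

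RP genes took a larger share of the reads in the BM libraries than in the spleen libraries, and the gap was smaller when antibody transcripts were left out. The share of all counts was 7.93%, 7.18% and 7.96% in BM after saline. It was 7.97%, 10.28% and 8.94% in BM after sepsis. It was 4.66%, 4.28% and 5.24% in spleen after saline. It was 7.02%, 6.36% and 5.98% in spleen after sepsis. All 6 BM libraries lay above all 6 spleen libraries, and within the spleen the 3 sepsis libraries lay above the 3 saline libraries. The group means were 7.69% ± 0.444 (SD, n = 3) in BM saline, 9.06% ± 1.16 in BM sepsis, 4.72% ± 0.480 in spleen saline and 6.45% ± 0.526 in spleen sepsis. Segments of immunoglobulin and T cell receptor genes took 1.04% to 4.23% of the counts in BM and 13% to 30.1% in spleen. With these segments left out, the means were 7.90% ± 0.506, 9.19% ± 1.16, 6.58% ± 0.930 and 8.28% ± 1.23 in the same order. BM and spleen then overlapped, and in spleen the third sepsis library (6.88%) lay below the third saline library (7.49%). The share was not tested, because it is a score over the members.

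**Figure D1:**
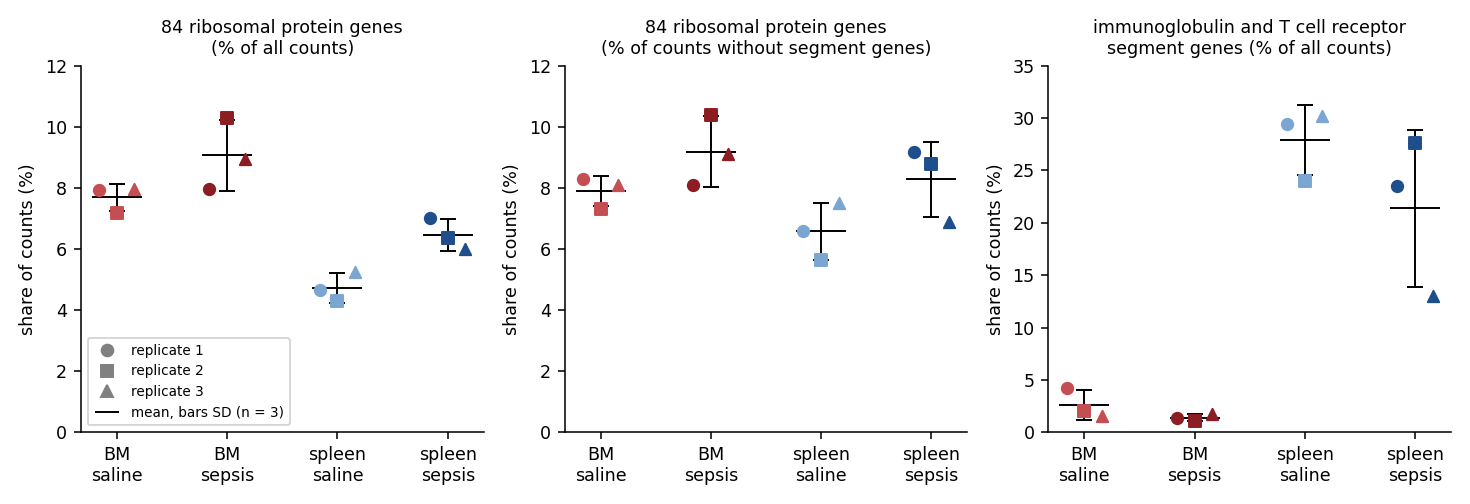
Share of counts in each library (y axes, %) for the 84 RP genes out of all counts, for the same genes once antibody and T cell receptor segments were taken out, and for the removed genes. Points are libraries, bars are the mean and SD of 3 libraries, and the BM libraries lie above the spleen libraries in the first panel only.

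By subunit, the RP reads were divided within narrow ranges. Small subunit genes took 47.0% to 50.8% of the RP counts over the 12 libraries, and large subunit genes took 39.6% to 45.8%. The 3 stalk genes took 4.50% to 6.02% in 11 libraries and 10.7% in the third spleen sepsis library. The 7 paralogs took 2.02% to 3.37% in the 6 BM libraries and 0.848% to 1.98% in the 6 spleen libraries, so the paralog share did not overlap between tissues. Most of these reads came from Rps27l in every library. Reads on 292 pseudogenes named for 60 of the members amounted to 0.175% to 0.572% of the member reads.

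Members differed widely in level per length. Levels between genes are given as CPM per kb of exon, averaged over the 12 libraries, and the annotated exon length includes every isoform, so a gene with a long rare isoform appears low. The highest were Rplp1 of the stalk (2789), Rpl36 of the large subunit (2013), Rps29 and Rps15 of the small subunit (1851 and 1787) and Rpl32 of the large subunit (1621). A total of 75 members were above 100 CPM per kb, 36 above 500 and 13 above 1000. The ranges of these 5 over the libraries overlapped, so their order is not firm. Rps27 was eighth (1400.4, from 706 to 2622) and Rps27l ninth (1319, from 399 to 2098), which makes Rps27l the only paralog above the median member.

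**Figure D2:**
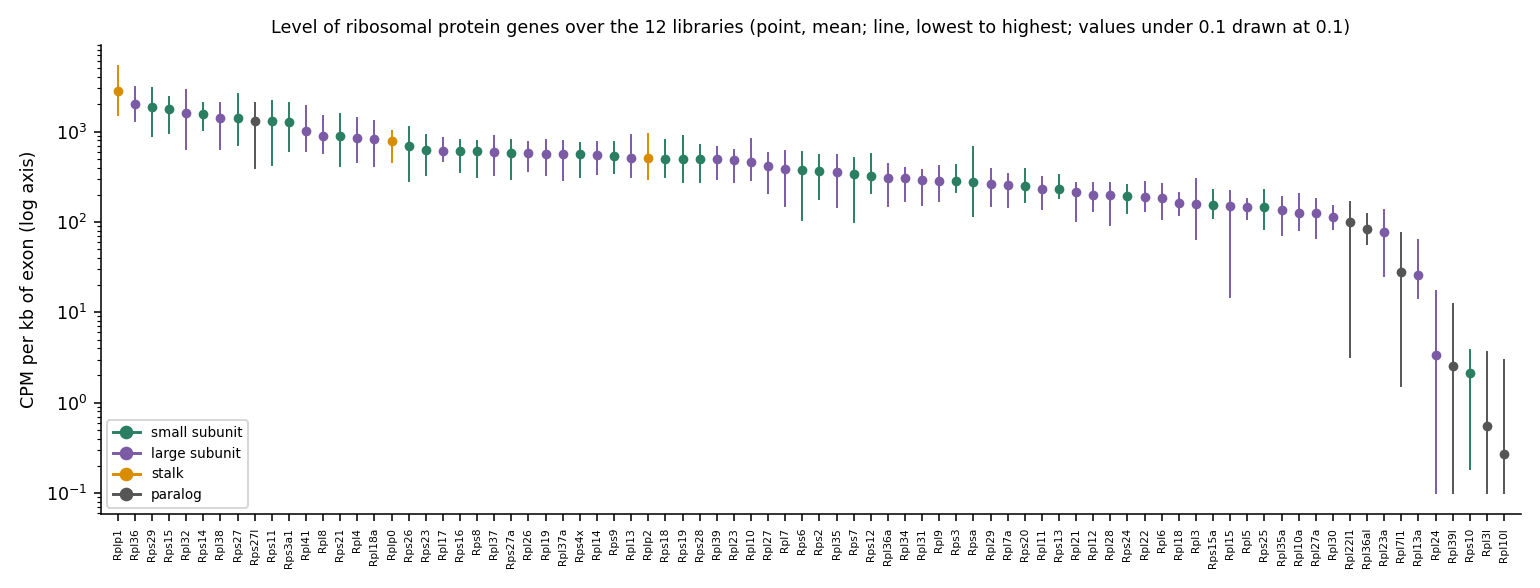
Level of the members in CPM per kb of exon (log axis), ordered by the mean over 12 libraries. Points are means and lines run from the lowest to the highest library, and the range extends from 2789 for Rplp1 to 0.271 for Rpl10l.

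The 5 lowest members were Rpl24 (3.36 CPM per kb), Rpl39l (2.55), Rps10 (2.11), Rpl3l (0.547) and Rpl10l (0.271). Rpl3l is known from heart and skeletal muscle and Rpl10l from testis, and both had few counts. Rpl3l had counts of 1 in BM saline, of 15, 4 and 8 in BM sepsis, of 56 in 1 spleen saline library and of 60 in 1 spleen sepsis library. Rpl10l had counts of 1 and 6 in BM sepsis and of 37 in 1 spleen saline library. Rpl24 and Rps10 encode standard subunit proteins, and both share exon bases with other annotated genes. Rps10 shares 28.7% of its exon bases with the read-through gene RPS10-NUDT3 and an antisense gene, and reads on its 4 named pseudogenes came to 153% of its own. Rpl24 shares 47.0% with Gm28037, which had no counts in any library. Overlaps above 20% affected 12 members, among them Rpl35 (66.2%), Rpl23a (62.3%) and Rpl13a (35.4%). The sources used here do not say how reads on overlapping genes were counted or whether strand was used, so the levels of these members are uncertain. A total of 30 members host snoRNA genes in their introns, 58 in all.

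Among libraries of a group the members varied less than other genes did. The median over 83 members of the SD of log2 CPM within groups was 0.36, against 1.33 over all 20263 genes tested and 0.64 over 551 other genes of similar abundance, defined as those between the 10th and 90th percentile of member abundance. Without the third spleen sepsis library, the members were at 0.25 and those other genes at 0.44. An SD under 0.5 was seen for 64 of the 83 members. Among the steadiest were Rpl30 (0.14) and Rps13 (0.18), named here after their values were seen, and the most variable were Rpl24, Rpl22l1, Rpl3l and Rpl7l1.

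The BM and spleen libraries were first compared after saline. No member passed the test (edgeR's quasi-likelihood test, Benjamini-Hochberg adjusted p under 0.05 over all genes), while 253 of 20263 genes did (1.25% called). At an unadjusted p under 0.05 there were 3 members (3.61%, against 12.5% of all genes). Rps27 was the single member called by DESeq2 (6.47% of all genes called) and by limma-voom with quality weights (0.913%). Without the third spleen sepsis library edgeR called 1 member, Rps27l (adjusted p = 0.0307, with 1.8% of all genes called). With library size alone it called 2, Rps27l and Rpl36a (1.86%). The members had a median log2 fold change, BM over spleen, of 0.21, with 63 of 83 above 0, against a median of -0.28 over all genes. The median of the members moved with scaling, and that of all genes moved with it. It was -0.04 with RLE factors, where the median over all genes was -0.54, and 0.71 with library size alone, where it was 0.20. The median of the members was above that of all genes under these scalings, but not in limma-voom (0.21 against 0.22) or without the second spleen saline library (0.10 against 0.12).

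Among large subunit members after saline, Rpl36a was at 608, 566 and 626 CPM in BM and at 372, 249 and 267 CPM in spleen (log2 fold change 1.02, SE 0.43, 95% CI 0.12 to 1.92, adjusted p = 0.375, edgeR). For this gene the 3 BM libraries lay above the 3 spleen libraries, without passing the test. Rpl38 (0.79) and Rpl27 (0.82), also of the large subunit, did not overlap between the tissues either and had adjusted p values of 0.429 and 0.442 in edgeR. In the other direction, Rpl17 was at 626, 667 and 683 CPM in BM and at 951, 776 and 897 CPM in spleen (-0.41, SE 0.41, adjusted p = 0.766, edgeR), and this order turned with library size alone (0.10). In all, BM lay above spleen without overlap for 27 of 83 members (32.5%, against 11.3% of all genes). It lay below spleen for 3 (3.61%, against 7% of all genes), which were Rps27, Rpl17 and Rpl39l. These shares are not like for like, because members varied less within groups than all genes did (median SD 0.36 against 1.33). Scaled to the summed RP counts, which removes a common shift, the median was 0.0069 with 44 of 83 above 0.

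After sepsis the direction of the members between tissues changed with the spleen libraries included. None passed the test in edgeR, and 361 genes did (1.78% called). There were 2 members at an unadjusted p under 0.05 in edgeR (2.41%, against 12.9% of all genes). DESeq2 called 2 (Rps27 and Rpl39l, with 7.26% of all genes called) and limma-voom called 3 (Rps27, Rps19 and Rpl41, with 3.57%), all lower in BM. Without the third spleen sepsis library edgeR called 1 member, Rps27 (adjusted p = 0.00939, with 1.98% of all genes called). The median log2 fold change was -0.05 with 36 of 83 above 0, against -0.18 over all genes. It was 0.57 with library size alone, where that of all genes was 0.34. Without the third spleen sepsis library it was -0.23 with 20 of 83 above 0, and without the first it was 0.26 with 59 of 83 above 0. BM lay above spleen without overlap for 2 members (2.41%, against 11% of all genes) and below it for 5 (6.02%, against 7.02%). Those 5 were Rps27, Rps13 and Rps20 of the small subunit, Rpl8 of the large subunit and Rplp0 of the stalk.

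Rps19, the gene most often mutated in Diamond-Blackfan anemia, was at 2268, 1735 and 2144 CPM in BM after sepsis and at 4190.2, 3437 and 1283 CPM in spleen (log2 fold change -0.54, SE 0.44, adjusted p = 0.649, edgeR). The first 2 spleen libraries were above all BM libraries and the third was below them, and the fold change was -0.88 without the third and -0.13 without the first. Rpl41, which encodes the smallest RP, was at 1185, 966 and 1205 CPM in BM and at 2238, 1759 and 992 CPM in spleen (-0.57, SE 0.43, adjusted p = 0.588, edgeR). Its first 2 spleen libraries were also above BM, while the third was within the BM range, and the fold change was -0.82 without the third and -0.21 without the first. Rpsa, which also acts as the laminin receptor, was at 735, 971 and 874 CPM in BM and at 878, 1010 and 2167 CPM in spleen (-0.65, SE 0.48, adjusted p = 0.573, edgeR), and here the third spleen library was the high one, without which the fold change was -0.11. Rpl15 was the large subunit member with the smallest p among those higher in BM (0.68, SE 0.66, adjusted p = 0.721, edgeR). It was at 497 and 379 CPM in the first 2 spleen sepsis libraries, at 36.9 CPM in the third and at 387 to 549 CPM in BM. Its fold change was 0.17 without the third spleen sepsis library and 1.29 without the first. Rpl23 (0.35), Rpl36a (0.34) and Rpl27 (0.36) had adjusted p values of 0.792 to 0.818 in edgeR, and without the third spleen sepsis library they were at 0.21, 0.22 and 0.065.

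Rps27 and its paralog Rps27l were ordered in opposite ways between the tissues. Rps27 encodes a zinc-binding protein of the small subunit, and Rps27l, a known target of p53, encodes a near copy of it. Rps27 was at 907, 876 and 985 CPM in BM saline and at 996, 847 and 737 CPM in BM sepsis. It was at 2439.5, 1595 and 2109 CPM in spleen saline and at 2735, 2265 and 1037 CPM in spleen sepsis. All 6 spleen libraries lay above all 6 BM libraries, and the third spleen sepsis library came nearest to them. No member lay above in BM in all 6 libraries (2.56% of all genes), and Rps27 was the 1 member below (1.2% of members, against 1.87% of all genes). Rps27l was at 1141, 1531 and 1712 CPM in BM saline and at 1505, 1093 and 1614 CPM in BM sepsis. It was at 588, 513 and 684 CPM in spleen saline and at 1335, 877 and 325 CPM in spleen sepsis. The BM libraries lay above the spleen libraries except that 1 spleen sepsis library fell within the BM range.

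After saline, the log2 fold change of Rps27, BM over spleen, was -1.15 (SE 0.44, 95% CI -2.07 to -0.23, adjusted p = 0.310, edgeR) and that of Rps27l was 1.30 (SE 0.49, 95% CI 0.27 to 2.32, adjusted p = 0.301, edgeR). After sepsis they were -1.23 (SE 0.44, adjusted p = 0.252) and 0.73 (SE 0.48, adjusted p = 0.506, edgeR). Both treatments were then averaged, a contrast added after these values had been seen. In it, 962 of 20263 genes were called (4.75%), and Rps27 was the only member among them (-1.19, SE 0.31, 95% CI -1.84 to -0.54, adjusted p = 0.0304, edgeR). This is a 2.28-fold lower level in BM than in spleen. Rps27l was at 1.01 (SE 0.34, 95% CI 0.29 to 1.73, adjusted p = 0.106, edgeR). DESeq2 called Rps27 and Rpl39l in this contrast (Rps27, adjusted p = 0.000234, with 12.9% of all genes called), and limma-voom called Rps27 and Rps27l (Rps27, adjusted p = 0.000101, with 7.49%). With libraries scaled to the summed RP counts edgeR called Rps27 (adjusted p = 0.00535) and Rps27l (adjusted p = 0.0356), with 4.59% of all genes called, and the same pair was called without an expression filter (2.83%).

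The call of Rps27 was lost with library size alone (-0.61, adjusted p = 0.143, edgeR), where 17 other members were called higher in BM and 7.48% of all genes were called. It was also lost with a replicate block (adjusted p = 0.0534, with 4.71% of all genes called) and when any 1 of 10 libraries was left out (highest adjusted p = 0.137, edgeR, without the second BM saline library). It held without the second spleen saline library (adjusted p = 0.0304) or the third spleen sepsis library (adjusted p = 0.000383, with 4.36% of all genes called). The log2 fold change stayed below 0 in all of these fits.

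The ratio of Rps27l to Rps27 reads within a library does not depend on scaling. It was 1.26, 1.75 and 1.74 in BM saline and 1.51, 1.29 and 2.19 in BM sepsis. It was 0.241, 0.321 and 0.324 in spleen saline and 0.488, 0.387 and 0.314 in spleen sepsis. Rps27l had more reads than Rps27 in every BM library and at most 0.488 times as many in every spleen library, the third spleen sepsis library included. The pair was singled out after its values had been seen, so the ratio has no test. The single pseudogene named for Rps27 held 0.0125% as many reads as Rps27 itself. The levels of the B cell and plasma cell genes also separated the tissues, with 14 of 16 and 5 of 9 called lower in BM after saline, and their part in the Rps27 ratio was not tested.

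**Figure D3:**
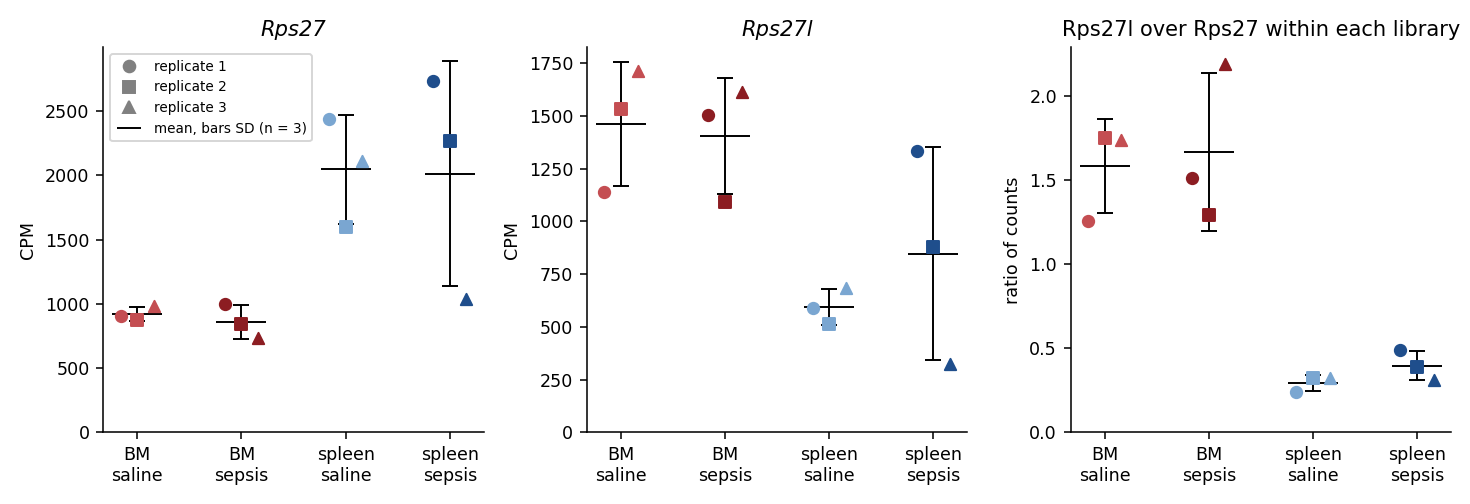
CPM of Rps27 and of Rps27l and the ratio of their counts in each library (y axes start at 0). Points are libraries and bars are the mean and SD of 3 libraries, and the ratio lies between 1.26 and 2.19 in BM and between 0.241 and 0.488 in spleen.

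The other members were then compared as shares of the RP counts, which removes any common shift of the class. A total of 79 members had at least 10 counts in every library. Across these, the difference between tissues in log2 share after saline and the same difference after sepsis, which rest on separate libraries, had a Pearson correlation of 0.66, and 56 of 79 had the same sign. Without the third spleen sepsis library these were 0.72 and 59. The points share gene length and base composition between the 2 axes. For 8 members the 6 BM libraries lay above the 6 spleen libraries, among them Rps27l, Rps27a and the large subunit genes Rpl23, Rpl27, Rpl31, Rpl36a and Rpl7a, and for Rps27 they lay below. On the same scale, 2.42% of all genes tested lay above and 1.98% below. Rps27l (1.10 after saline and 1.02 after sepsis) and Rps27 (-1.32 and -1.04) had the largest differences among these 9, and the other 7 were between 0.29 and 0.85. Rps27a encodes a fusion of ubiquitin with a small subunit protein, and Rpl23 is known to bind Mdm2, the inhibitor of p53.

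**Figure D4:**
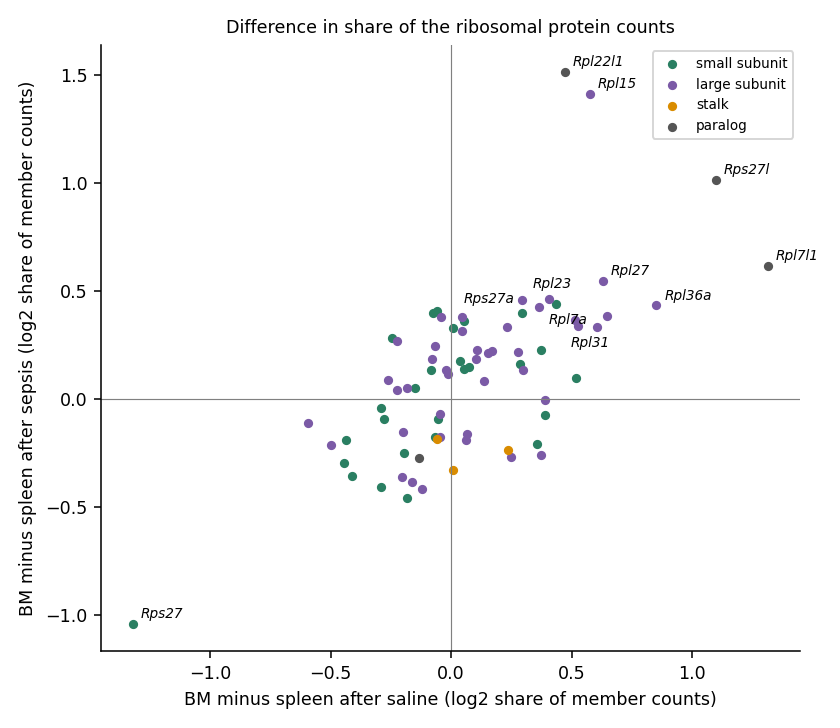
Difference between BM and spleen in the mean log2 share of the RP counts, after saline (x axis) and after sepsis (y axis), for members with at least 10 counts in every library, colored by class. Rps27 lies alone at the lower left (-1.32, -1.04) and Rps27l at the upper right (1.10, 1.02), and the height of Rpl22l1 and Rpl15 rests on the third spleen sepsis library.

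In the third spleen sepsis library the RP counts were divided differently from the rest. Its log2 shares correlated with those of the other 11 libraries at 0.71 to 0.85 over 79 members, while all other pairs were at 0.83 to 0.99. Compared with the median of the other libraries, its share was lower on the log2 scale by 4.87 for Rpl22l1 (-4.87) and by 3.15 for Rpl15 (-3.15), and lower for Rps6 (-1.71), Rps7 (-1.58) and Rps27l (-1.44). It was higher for Rpsa (1.80), Rplp1 (1.36) and Rpl3 (1.33). In this library the summed level of the 9 plasma cell genes was 8021 CPM, the lowest of the spleen libraries, although 1 of them, Sdc1, was at 119 CPM, against 0 to 14.3 CPM in the other 11 libraries. Cd79a, a B cell marker, was at 125 CPM, against 700.4 to 2829 CPM in the other spleen libraries. Its share of segment genes, 13%, was the lowest of the spleen libraries. The part of these markers was not tested.

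The remaining paralogs were compared with their parents within each library. Rpl22l1 can stand in for Rpl22 and is known to be repressed by it. The ratio of Rpl22l1 to Rpl22 reads was 0.404, 0.481 and 0.457 in BM saline, 0.402, 0.232 and 0.368 in BM sepsis and 0.309, 0.517 and 0.296 in spleen saline. It was 0.519, 0.432 and 0.0105 in spleen sepsis, so that the groups overlapped and 1 library was far below. The ratio of Rpl36al to Rpl36a was 0.127 to 0.209 in BM and 0.218 to 0.468 in spleen, without overlap between tissues. Rpl36al itself was at 77.0 to 124 CPM in BM and 81.0 to 164 CPM in spleen, so that its own level overlapped between tissues. The ratio of Rpl7l1 to Rpl7 overlapped between the tissues, at 0.0717 to 0.217 in BM and 0.00651 to 0.119 in spleen.

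Rpl39l, known as a testis paralog of Rpl39, was detected mainly in the spleen libraries, and the cells it came from were not tested. Its counts were 7, 0 and 1 in BM saline and 0 in all BM sepsis libraries. They were 11, 39 and 37 in spleen saline and 0, 92 and 59 in spleen sepsis. The saline groups did not overlap, and after sepsis 1 spleen library was also at 0. With 3 counts per library as the limit of a count of 0 in BM, the mean in spleen after sepsis (5.34 CPM) was 28.8-fold above that limit. This bound allows for counting error in BM only. It does not cover the spread between the spleen libraries, 1 of which was at 0. edgeR did not call the gene (adjusted p = 0.274 after sepsis and 0.651 after saline), and DESeq2 did after sepsis (adjusted p = 0.00974). With Rpl39l set at this bound the median over the members after sepsis was -0.05, as before. Its parent Rpl39 was at 423 to 966 CPM in all libraries, so that Rpl39l reads were at most 0.0121 times those of Rpl39.

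Sepsis was compared with saline within each tissue. In BM no gene passed the test in edgeR (0% called) and no member was at an unadjusted p under 0.05 (3.54% of all genes). Neither DESeq2 (1.02% of all genes called) nor limma-voom (0%) called a member, and 5 members were at an unadjusted p under 0.05 in limma-voom, as were 1377 of all genes. The median log2 fold change over the members, sepsis over saline, was 0.17 with 78 of 83 above 0, against -0.08 over all genes. Fold changes of members other than paralogs lay between -0.10 and 0.53. The members with the smallest p other than paralogs were Rps12 at 630, 494 and 533 CPM after saline and 563, 1160 and 655 CPM after sepsis (0.52, SE 0.44, 95% CI -0.40 to 1.44, edgeR), Rps21 (0.53, SE 0.45) and Rps20 (0.49, SE 0.41). All had an adjusted p of 1 in edgeR. For Rps21 and Rps20 the sepsis libraries lay above the saline libraries. Without overlap, sepsis lay above saline for 22 of 83 members (26.5%, against 4.79% of all genes). It lay below saline for none, against 4.16% of all genes. Here too the members varied less within groups than all genes did (median SD 0.36 against 1.33). Scaled to the summed RP counts, which removes a common shift, the median was -0.013 with 39 of 83 above 0. Over the same libraries the summed level of 12 neutrophil genes was 219 to 638 CPM after saline and 3036 to 20801 CPM after sepsis, with all 12 higher and none called. The part of these genes was not tested.

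In the spleen 80 of 83 members had positive fold changes after sepsis, and none passed the test. The median log2 fold change was 0.47, against -0.08 over all genes, and 32 genes were called (0.158%). There were 6 members at an unadjusted p under 0.05 in edgeR (Rpl3, Rps26, Rplp2, Rpl28, Rpl8 and Rps2), which are 7.23% of them, against 13.1% of all genes. In limma-voom there were 29, beside 1492 of 20263 genes. The edgeR count was 3 without the first spleen sepsis library (2244 of 25324 genes) and 0 without the second spleen saline library (2239 of 23354 genes). Neither DESeq2 (4.87% of all genes called) nor limma-voom (0%) called a member. Without the third spleen sepsis library the median was 0.71 against -0.44 over all genes. In that fit 33 members were at an unadjusted p under 0.05 in edgeR, as were 2289 of 25900 genes. It called 0 members (0.336% of all genes called). With RLE factors the median was 0.28 against -0.26 over all genes. Without overlap, sepsis lay above saline for 23 of 83 members (27.7%, against 4.95% of all genes). It lay below saline for none, against 4.51% of all genes. These shares are not like for like either, given the smaller spread of the members within groups (median SD 0.36 against 1.33). Scaled to the summed RP counts, which removes a common shift, the median was -0.045 with 40 of 83 above 0.

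Rpl3, a protein near the peptidyl transferase center, was at 344, 206 and 408 CPM in spleen after saline and at 563, 607 and 948 CPM after sepsis (log2 fold change 1.14, SE 0.46, 95% CI 0.19 to 2.10, adjusted p = 0.382, edgeR). Rps26, which sits at the mRNA exit of the small subunit, was at 729, 443 and 913 CPM after saline and at 1733, 1518 and 1127 CPM after sepsis (1.07, SE 0.43, adjusted p = 0.382, edgeR). The groups did not overlap for either gene. Rpl28 was at 253, 170 and 266 CPM after saline and at 494, 474 and 416 CPM after sepsis (1.01, SE 0.44, adjusted p = 0.382, edgeR). Rpl8 was at 1039, 794 and 1001 CPM after saline and at 1518, 1670.1 and 2009.9 CPM after sepsis (0.88, SE 0.40, adjusted p = 0.382, edgeR). Both also separated the groups. Rps27 was at -0.03 (SE 0.43, 95% CI -0.93 to 0.88, adjusted p = 1, edgeR), 1 of 3 members below 0 together with Rpl24 and Rpl3l. Over the same libraries the summed level of 10 basophil and mast cell genes was 3243 to 5393 CPM after saline and 54.3 to 746 CPM after sepsis, with 3 called lower, and that of 9 plasma cell genes was 47154 to 80883 CPM and 8021 to 36184 CPM, with none called. The plasma cell sum follows Jchain, and 7 of those 9 genes had fold changes above 0. The part of these genes was not tested.

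**Figure D5:**
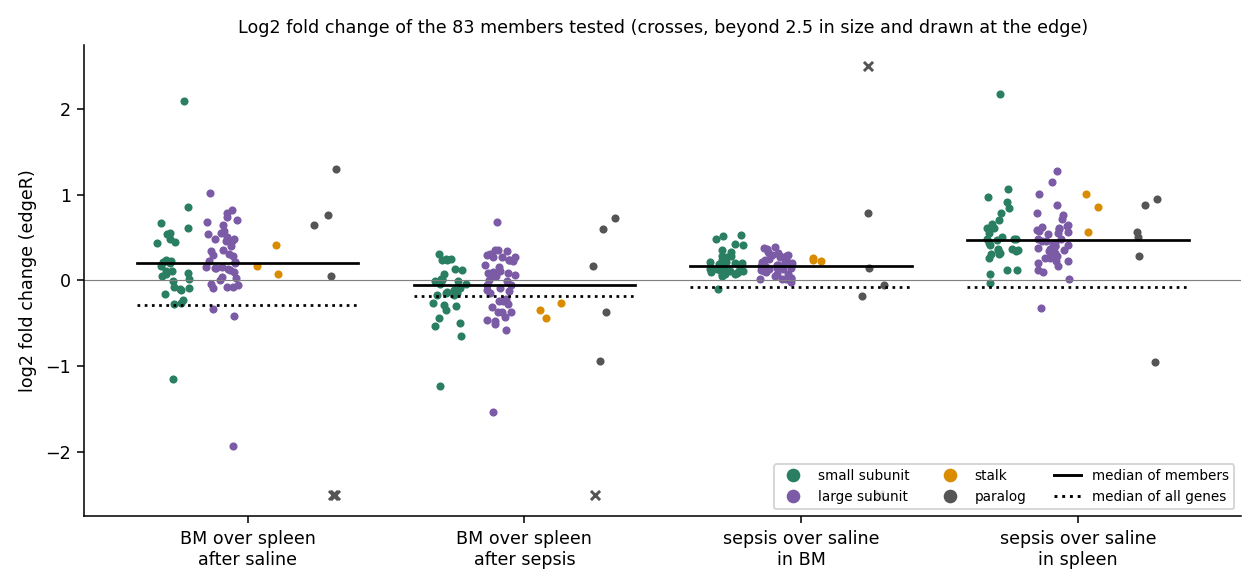
Log2 fold change from edgeR (y axis) of the 83 members tested in each of the 4 comparisons, by class. Solid lines are the median of the members (0.21, -0.05, 0.17 and 0.47) and dotted lines that of all genes tested, and crosses mark values beyond 2.5 in size.

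The stalk genes were followed as a unit. Rplp0 was at 1163, 1133 and 1197 CPM in BM saline, 1261, 1264 and 1568 CPM in BM sepsis, 1068, 756 and 1484 CPM in spleen saline and 1685, 1615 and 1602 CPM in spleen sepsis. Rplp1 was at 1301, 1171 and 1075 CPM in BM saline, 1099.7, 1688 and 1449 CPM in BM sepsis, 1083, 759 and 1325 CPM in spleen saline and 1544, 1545 and 2660.4 CPM in spleen sepsis. Rplp2 was at 997, 917 and 941 CPM in BM saline, 912, 1387 and 1063 CPM in BM sepsis, 702, 615 and 821 CPM in spleen saline and 1382, 972 and 1932 CPM in spleen sepsis. In spleen all 3 genes were higher in every sepsis library than in any saline library. The log2 fold changes there were 0.57, 0.86 and 1.003, the last for Rplp2 (SE 0.42, adjusted p = 0.382, edgeR), and none was called. In BM they were 0.23 to 0.26. With single libraries left out, the fold change of Rplp2 in spleen ranged from 0.76 to 1.25. As a share of the RP counts, the stalk was at 4.50% to 5.59% in spleen saline. It was at 4.66% and 4.96% in the first 2 spleen sepsis libraries, within that range, and at 10.7% in the third.

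Whether the effect of sepsis differed between the tissues was tested as an interaction. No gene was called in edgeR (0%) and no member was at an unadjusted p under 0.05 (7.68% of all genes). Neither DESeq2 (2.44% of all genes called) nor limma-voom (0%) called a member, and 6 members were at an unadjusted p under 0.05 in limma-voom, as were 1262 of all genes. The median over the members, the effect in BM minus that in spleen, was -0.27 with 72 of 83 below 0, against -0.07 over all genes. It was -0.52 without the third spleen sepsis library, -0.09 without the first, and 0.04 when libraries were scaled to the summed RP counts. The smallest p values belonged to Rpl39l, Rpl3 (-0.87, SE 0.64, 95% CI -2.21 to 0.46, adjusted p = 0.727, edgeR) and Rps26 (-0.79, SE 0.60, 95% CI -2.04 to 0.47, adjusted p = 0.746, edgeR). With sepsis and saline averaged over tissues, a contrast added after the results were seen, 14 genes were called (0.0691%), 0 of them members, with 5 members at an unadjusted p under 0.05 in edgeR (6.02%, against 10.2% of all genes). DESeq2 (3.34% of all genes called) and limma-voom (0.00494%) called 0 members. The median was 0.34 with 80 of 83 above 0, against -0.07 over all genes.

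The RP genes Rack1 and Fau, outside the symbol rule, were not called either. Rack1, a signaling scaffold on the small subunit, was at 1187 to 2259 CPM in all libraries, with a log2 fold change, BM over spleen, of 0.26 after saline (SE 0.38, adjusted p = 0.869, edgeR). Fau, which encodes a small subunit protein as a fusion, was at 202 to 441 CPM in BM and 341 to 603 CPM in spleen (-0.59, SE 0.46, adjusted p = 0.651, after saline). Of the 20 Diamond-Blackfan genes, all of which are members, 16 were above 0 between tissues after saline with a median of 0.32 and 12 after sepsis with a median of 0.07. None was called there, and Rps27 was called when treatments were averaged.

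Other genes of the translation machinery were counted by list, beside 1.25% of all genes called between tissues after saline and 1.78% after sepsis. After saline, edgeR called 0 of 8 elongation factors (median log2 fold change 0.22), 0 of 27 initiation factors (0.33), 0 of 20 other TOP mRNAs (0.16), 0 of 34 ribosome assembly factors (0.62), 0 of 19 genes of RNA polymerase I (0.22), 0 of 10 genes of ribosome rescue (0.45), 1 of 77 mitochondrial RP genes (0.59) and 1 of 19 regulators (0.53). The same counts after sepsis were 0 for the first 7 of these lists and 1 for the regulators. The gene called in both was Mycn, a Myc family factor known to drive ribosome production, at 42.0 to 108 CPM in BM and 0.154 to 3.59 CPM in spleen, without overlap (adjusted p = 0.0120 after saline and 0.0146 after sepsis, edgeR). The mitochondrial RP gene was Mrps25, at 114.8 to 125 CPM in BM after saline and 10.3 to 32.7 CPM in spleen (adjusted p = 0.0383, edgeR). Mitochondrial RP genes, which serve a separate ribosome, took 1.07% to 1.65% of the counts in BM and 0.380% to 0.908% in spleen. None of these lists had a call for sepsis in either tissue, where the median over 34 assembly factors was 0.35 in BM and 0.37 in spleen.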

How the data were processed

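Counts of reads per gene were deposited by the authors as whole numbers without normalization. The submitters' processing notes name STAR 2.7.2b, GRCm38, R 3.6.1 and DESeq2 1.26, while no source used here names the counting tool, its options or its annotation. The SMART-Seq HT and Nextera XT kits were used, which do not count molecules, so limits cover counting error only. All 55536 identifiers were found in GENCODE M21, which gave gene types, exon lengths and overlaps.

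The 12 libraries, with total counts of 7756762 to 27386184, were grouped by the labels. The tests were run with edgeR 4.0.16 under R 4.3.3 (filterByExpr with a minimum count of 10, TMM factors, 1 mean per group, 8 residual degrees of freedom, quasi-likelihood test, Benjamini-Hochberg adjustment over 20263 genes). limma 3.58.1 and DESeq2 1.42.0 were alternatives, and Python 3.11.15 with pandas 2.3.3 and matplotlib 3.10.9 made tables and figures. The procedure was also run on counts simulated from the observed means and the fitted dispersions. Such counts cannot show whether that model holds for these data. The common biological coefficient of variation was 143%.

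The members and lists were chosen with earlier results of these data known. Named were, for each comparison and direction, the 5 members with the smallest p, the 5 highest and 5 lowest levels, paralogs, stalk, members outside the symbol rule and called members, and some genes so covered are not reported here, in the text or the plots that name genes. Alternatives were RLE factors, library size alone, scaling to the summed RP counts, removal of immunoglobulin and T cell receptor segments, other filters, addition of pseudogene reads, the 6 libraries of a comparison alone, a replicate block and each library left out.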

Additional observations from a re-analysis of the deposited data

How the results depend on the processing

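Between tissues after saline the number of members called, 0 in edgeR, was 2 with library size alone and 1 with DESeq2 or limma-voom, and it ranged from 0 to 1 when single libraries were left out. After sepsis it was 2 with DESeq2, 3 with limma-voom and 0 to 1 when single libraries were left out. With treatments averaged, 1 member was called, against 17 with library size alone, 2 when scaled to the summed RP counts, without an expression filter, with DESeq2 or with limma-voom, and 0 to 2 when single libraries were left out. The median log2 fold change of the members moved with library size alone to 0.71 after saline, 0.57 after sepsis and 0.65 with treatments averaged. Scaling to the summed RP counts sets it near 0 by construction, at -0.045 for sepsis in spleen, 0.036 for the interaction and -0.0024 for sepsis with tissues averaged. Without 1 library it was 0.10 to 0.39 after saline, -0.23 to 0.26 after sepsis, 0.0012 to 0.30 with treatments averaged, 0.13 to 0.23 for sepsis in BM, 0.29 to 0.71 in spleen, 0.25 to 0.46 with tissues averaged and -0.52 to -0.09 for the interaction. The RP share per kb of exon was 9.13% in BM saline, 11.2% in BM sepsis, 3.23% in spleen saline and 5.53% in spleen sepsis, and without segment genes it was 6.58% in spleen saline and 8.28% in spleen sepsis. Without 1 library the share was 7.55% to 7.94%, 8.45% to 9.61%, 4.47% to 4.95% and 6.17% to 6.69% in these 4 groups.

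Of 43 values of named members, 32 kept their sign in every setting tried, and none of the values that reversed was called in the edgeR test reported, although limma-voom called Rps19 and Rpl41 after sepsis. With library size alone, Rpl17 after saline (0.10), Rpl41 (0.040) and Rps19 (0.10) after sepsis, and Rpl13 for sepsis in BM (0.015) turned positive. With limma-voom the reversed values were Rpl24 after saline (1.71) and for sepsis in spleen (2.92), Rps27l (0.010) and Rpl13 (0.0054) for sepsis in BM, and Rps27 for sepsis in spleen (0.18). Rpl13 was 0.019 without segment genes and 0.023 without a filter, and Rps27 for sepsis in spleen was 0.022 without a filter. Without 1 library, Rpl13 ranged from -0.22 to 0.18, Rps27 and Rps27l for sepsis in BM from -0.21 to 0.0085 and from -0.20 to 0.11, Rps27 for sepsis in spleen from -0.27 to 0.32, Rpl24 from -2.51 to 7.35 after saline and from -0.90 to 8.97 for sepsis in spleen, and Rpl3l from -7.69 to 2.03 and from -7.59 to 6.79. The causes were not tested. The 18 pairs of libraries with equal replicate numbers in different groups had correlations of -0.06 to 0.04. The 36 pairs with different numbers were at -0.07 to 0.07. These values cannot tell whether equal numbers mark a shared mouse or day, and the labels do not say. With the replicate block the number of members called with treatments averaged was 0 (Rps27, adjusted p = 0.0534, edgeR), and Rpl24 for sepsis in spleen was 1.23.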
